A study of Mus musculus with 12 samples.

Results

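The integrin and laminin chains are a set of 37 genes, 26 for integrin chains and 11 for laminin chains, chosen by gene symbol alone (Itga or Itgb with a chain number or letter, and Lama, Lamb or Lamc with a chain number). All 37 had a count in at least 1 library, out of 18810 genes with a count and 23329 genes listed. They were read in mRNAseq libraries of cultured stromal cells, labelled intestinal myofibroblasts, from mouse small intestine freed of its epithelium. The study used C57BL6/J mice, and no genotype is labelled for the cultures. Adult stroma was grown from adult mice (3 cultures) and embryonic stroma from embryos at E14.5, pooled for each of 3 cultures, so that a single embryo cannot be followed. At passages 2 to 3 the cells received lipopolysaccharide (LPS) of E. coli O111:B4 for 6 h, at a concentration labelled as 10 µg/µl, or phosphate-buffered saline (PBS) as the vehicle. The 4 groups, adult PBS, adult LPS, embryonic PBS and embryonic LPS, thus held 3 libraries each. LPS and PBS libraries of equal replicate number within a stage are taken below as 1 culture. No source used here states this pairing.

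Integrins are cell surface receptors made of 1 alpha and 1 beta chain, and the pair of chains decides what the cell can hold on to. Most bind matrix: collagen, laminin, or proteins that carry the tripeptide RGD, such as fibronectin and vitronectin. Others are worn by leukocytes and bind other cells. Laminins are cross-shaped trimers of an alpha, a beta and a gamma chain that form the sheet of the basement membrane, on which the gut epithelium, smooth muscle and vessels rest. In the fetal gut the laminin chains of that sheet are known to be made in part by the mesenchyme beneath it.

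For the account below, the chains were grouped by role. The leukocyte integrins were the alpha chains Itgal, Itgam, Itgax, Itgad and Itgae with the beta chains Itgb2 and Itgb7 (7 genes). The platelet chain Itga2b stood by itself, 18 genes coded for matrix-binding chains, and 11 coded for laminin chains. Of the 37 genes, 34 passed the filter on low counts (a CPM, the count scaled to a fixed library total, over 0.5 throughout at least 1 group) and were tested. The 3 that did not pass were leukocyte chains: Itgad, Itgae and Itgb7 had at most 8 counts in any library.

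Counts assigned to genes ranged from 18850224 to 32672370 per library, so that 3 counts, taken as the smallest detectable level, were worth 0.0897 to 0.145 CPM. This floor covers counting error only. Embryonic replicate 2 stood apart from the other embryonic cultures in both treatments, with 619.7 and 718.8 CPM of the fibroblast gene Dcn against at least 2812 CPM in the other 4 embryonic libraries. The fibroblast markers Col1a1, Col3a1 and Lum were also lowest there, but Pdgfra was not. Pdgfra was at 2.38, 3.78 and 4.31 CPM in embryonic PBS and 2.24, 5.84 and 4.47 CPM in embryonic LPS. The mesothelial marker sum (4 genes) of embryonic replicate 2 was 445.3 CPM with PBS, against 108.2 and 108.9 CPM in the other embryonic PBS libraries. Adult replicate 2 held the highest sum of 6 endothelial markers, 1791 CPM with PBS against 19.9 and 378.3 CPM in the other adult PBS libraries. Of these 6, Kdr did not follow, at 15.0, 13.7 and 16.8 CPM in adult PBS replicates 1 to 3. Smooth muscle and myofibroblast markers (6 genes) summed to between 14140 and 34520 CPM in the 12 libraries. The 5 epithelial markers summed to between 19.2 and 116.2 CPM: Epcam had at most 15 and Cldn7 at most 3 counts in any library, while the keratins Krt8, Krt18 and Krt19, which mesothelium also makes, had up to 892, 2496 and 522 counts.

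Measured per kilobase of exon, the same few chains led in every group. Itgb1, the beta chain shared by the collagen, laminin and fibronectin receptors, held between 85.9% and 89.9% of the summed beta chain level per kilobase in the 4 groups. Among alpha chains, Itga5, whose pair with Itgb1 is the classical fibronectin receptor, led with between 44.8% and 50.9%, followed by the collagen receptor chain Itga11 and by Itgav, the alpha chain of the vitronectin receptors. Lamb1 led the laminin beta chains (between 76.0% and 88.9%) and Lamc1 the gamma chains (between 89.4% and 92.0%). Lama5, an alpha chain of mature epithelial and vascular basement membrane, led its class with between 50.5% and 63.8%. The second-ranked alpha chain differed by stage: per kilobase, Lama4 took 16.6% in adult PBS and 2.14% in embryonic PBS, and Lama1 took 4.78% and 30.7%.

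Of the 34 tested chains, none was higher and 3 were lower in embryonic than in adult PBS stroma (edgeR quasi-likelihood test, adjusted p under 0.05), namely Itgb8, Lama4 and Lamb2. Over all 13038 genes tested, 4.08% were called, 1.51% higher and 2.57% lower. At an unadjusted p under 0.05 the same test passed 13 of the 34 chains, against 19.8% of all genes, and DESeq2 called 10 (5 higher, 5 lower), against 11.9% of all genes. The 34 had a median log2 fold change of -0.10, beside 0.02 over all genes. The leukocyte chains had the largest differences upwards and did not pass the test.

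By group mean, Itgam was the highest leukocyte chain in embryonic PBS (34.3 CPM) and Itgal in embryonic LPS (90.9 CPM). Itgam codes for CD11b, the alpha chain of the complement receptor of monocytes, macrophages and neutrophils, and Itgax for CD11c, found on dendritic cells and some macrophages. Itgb2 codes for CD18, the beta chain that both need, and Itgal for CD11a, the alpha chain of LFA-1, which binds Icam1. The genes for CD11a, CD11b and CD11c lie on chromosome 7 of GRCm38, Itgal at chr7:127296139-127335137, Itgam at chr7:128062640-128118491 and Itgax at chr7:128129526-128150657. Itgam and Itgax are 11034 bases apart, and Itgad follows Itgax after 23275 bases. Itgb2 lies on another chromosome, at chr10:77530329-77565708. RefSeq (GRCm38.p6) held promoter windows, from 250 bases before to 50 after a gene's start, for 23 of the 37 genes (26 windows), among them the neighbours Itgam and Itgax. They are shown because both genes were higher in every embryonic than in every adult PBS library. Capitals mark GAGGAA, the core of the sites that the myeloid factor PU.1 binds, in Itgam, and the AP-1 letters TGACTCA in Itgax, each in either orientation.
Itgam promoter, chr7:128062390-128062689, plus strand: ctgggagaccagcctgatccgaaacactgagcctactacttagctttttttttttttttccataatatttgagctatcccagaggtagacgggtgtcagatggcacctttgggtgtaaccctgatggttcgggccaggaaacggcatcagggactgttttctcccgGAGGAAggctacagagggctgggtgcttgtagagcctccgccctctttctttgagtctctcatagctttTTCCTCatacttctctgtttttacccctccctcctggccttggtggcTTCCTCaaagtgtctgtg
Itgax promoter, chr7:128129300-128129599, plus strand: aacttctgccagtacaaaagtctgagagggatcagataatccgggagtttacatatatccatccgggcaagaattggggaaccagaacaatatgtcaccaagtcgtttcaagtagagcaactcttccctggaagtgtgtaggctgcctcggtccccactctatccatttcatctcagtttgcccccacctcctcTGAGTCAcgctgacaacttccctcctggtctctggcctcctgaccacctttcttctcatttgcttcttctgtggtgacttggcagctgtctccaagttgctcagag
GAGGAA appeared 3 times in the Itgam window, at bases 167 to 172 and, on the reverse strand, at bases 236 to 241 and 283 to 288. It was present in 28.3% of the 32851 promoter windows and in windows of 14 of the 23 chain genes, Itgax not among them. TGACTCA, read on the reverse strand of the Itgax window at bases 195 to 201, was present in 5.20% of all windows and for 2 of the 23 genes (Itgax and Itga9). These are matches of letters and were not tested for binding.

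Itgam was at 3.48, 0.289 and 0.409 CPM in adult PBS replicates 1 to 3 and at 6.75, 16.9 and 79.3 CPM in the embryonic ones. Its partner Itgb2 was at 4.87, 0.675 and 1.02 CPM in adult and 5.61, 12.8 and 62.8 CPM in embryonic PBS. In both genes the lowest embryonic library lay above the highest adult one, and embryonic replicate 3 lay far above the other two. Itgam had a log2 fold change of 4.60 (SE 1.43, adjusted p = 0.0997, edgeR quasi-likelihood test), and Itgb2 of 3.62 (SE 1.28, adjusted p = 0.144). Neither passed the test. Itgal stood at 2.67, 0.385 and 0.545 CPM in adult PBS and at 8.32, 11.8 and 53.8 CPM in embryonic PBS. Itgax was the lowest of the tested leukocyte chains, with 0.623, 0.193 and 0.0682 CPM in adult and 2.26, 0.762 and 9.63 CPM in embryonic PBS. Neither gene overlapped between the stages. Their log2 fold changes were 4.33 (SE 1.23, adjusted p = 0.0770) and 3.81 (SE 1.11, adjusted p = 0.0843), again short of the threshold in edgeR. All 4 passed in DESeq2, with adjusted p = 0.000465 (Itgal), 0.00167 (Itgam), 0.00389 (Itgax) and 0.00985 (Itgb2).

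Within each stage, the libraries high in leukocyte chains were high in leukocyte markers. The sum of 9 macrophage and leukocyte markers (Ptprc, Csf1r, Cd68, Tyrobp, Fcer1g, Laptm5, Mrc1, C1qa and C1qb) was 81.2, 9.25 and 23.8 CPM in adult PBS and 160.1, 264.7 and 1658 CPM in embryonic PBS. Adult replicate 1 and embryonic replicate 3 were highest within their stages for the markers and for Itgam, Itgb2, Itgal and Itgax alike. None of the 9 markers was at 0, none was called in the stage comparison, and their median log2 fold change was 4.38. Per 100 counts of the summed markers, Itgam held 4.29, 3.13 and 1.72 counts in adult PBS and 4.22, 6.37 and 4.78 in embryonic PBS, ranges that overlap. The same share of Itgb2 was 6.00, 7.29 and 4.30 in adult and 3.50, 4.85 and 3.79 in embryonic PBS. The part of the marker level in the stage difference was not tested, and in bulk libraries fewer cells of a type and less RNA per cell cannot be told apart. Markers of T, B and NK cells (Cd3e, Cd79a, Ncr1) had at most 4 counts in any library, and those of neutrophils and mast cells (S100a8, Mpo, Cpa3) at most 7.

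**Figure D1:**
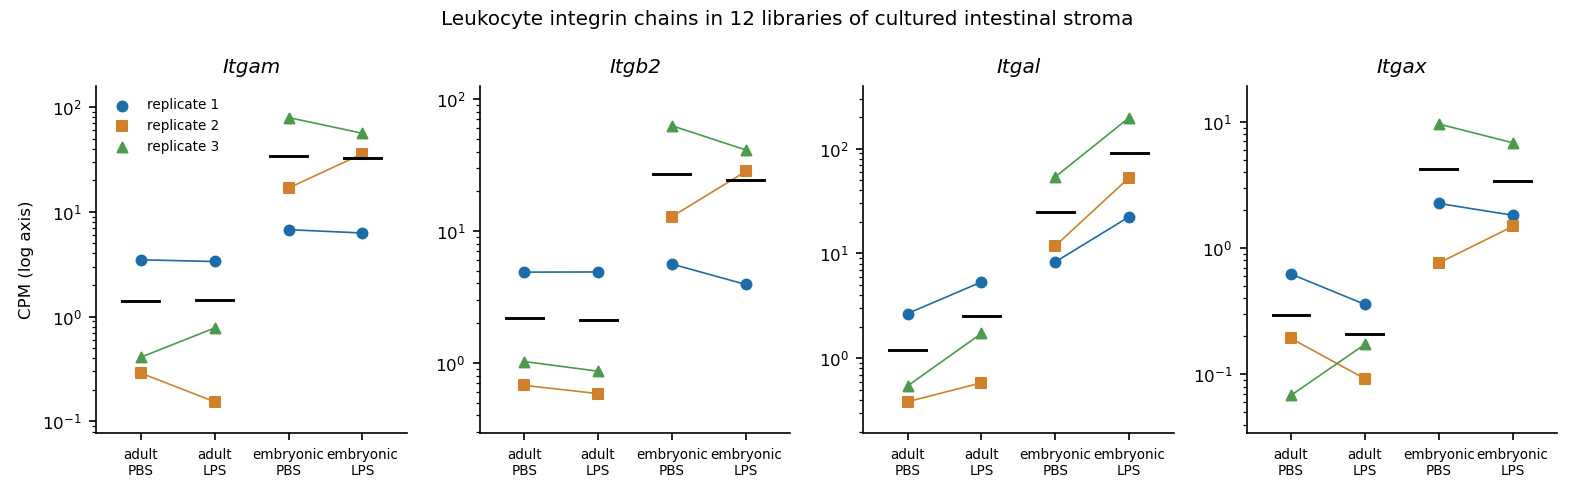
Level of Itgam, Itgb2, Itgal and Itgax in CPM, on a log axis with its own range in each panel, in the 4 groups. Each point is 1 library, thin lines join PBS and LPS libraries of equal replicate number within a stage, and black bars are group means; the same number in adult and embryonic stroma does not link cultures. Itgam lies between 0.289 and 3.48 CPM in adult PBS and between 6.75 and 79.3 CPM in embryonic PBS, and Itgal is higher with LPS than with PBS in every culture.

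The remaining leukocyte chains were close to the limit of detection. Itgb7, the beta chain of the gut homing receptor of lymphocytes, had 0, 1 and 2 counts in adult PBS and 8, 2 and 4 counts in embryonic PBS. Itgae, which codes for CD103 of intraepithelial lymphocytes and some dendritic cells, had no count in adult PBS and 3, 1 and 1 counts in embryonic PBS. Itgad had 1 count in embryonic PBS replicate 1, embryonic LPS replicate 2 and adult LPS replicate 3 and none elsewhere. At these counts no difference in Itgae or Itgad was detectable. The platelet chain Itga2b, the alpha chain of the fibrinogen receptor, was present at a low and even level, between 1.36 and 2.15 CPM in adult PBS and between 0.748 and 1.07 CPM in embryonic PBS. Its log2 fold change was -0.96 (SE 0.37, adjusted p = 0.184, edgeR), with no overlap between the stages.

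Among the 18 matrix-binding chains, 1 was lower in embryonic than in adult PBS stroma, none was higher, and 17 did not pass the test. The one called was Itgb8 (chr12:119162803-119238276), whose pair with Itgav is known to bind and activate latent TGF-beta. Itgb8 was at 7.80, 6.22 and 4.40 CPM in adult PBS and at 0.0904, 0.549 and 0.0598 CPM in embryonic PBS, where replicates 1 and 3 held 3 and 2 counts. This was a log2 fold change of -4.70 (SE 0.75, adjusted p = 0.0102, edgeR). It passed the test in each of 12 fits that left out 1 library, with log2 fold changes between -6.28 and -4.25. It did not pass when the 2 PBS groups were fitted alone, or when the LPS and PBS libraries of a culture were summed (adjusted p = 0.0507, edgeR). In the LPS libraries, taken to come from the same cultures, it was -2.20 (SE 0.65, adjusted p = 0.0782, edgeR), with no overlap.

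Itga8, whose pair with Itgb1 binds nephronectin and marks smooth muscle and pericytes, did not separate the stages. It was at 106.9, 76.9 and 119.6 CPM in adult PBS and at 89.4, 14.7 and 87.4 CPM in embryonic PBS, with embryonic replicate 2 alone at the low value. Its log2 fold change was -0.66 (SE 0.74, adjusted p = 0.707, edgeR), and -0.20 without embryonic PBS replicate 2. The same library was lowest for Itga11 (114.3 CPM against 555.0 and 570.3 CPM), a collagen receptor of fibroblasts, and for Itga9 (12.8 CPM against 53.0 and 88.5 CPM), a tenascin receptor chain. It was highest for the laminin receptor chains Itga3 (370.8 CPM against 129.5 and 83.1 CPM) and Itgb4 (21.9 CPM against 3.65 and 6.73 CPM). Itga7, the laminin receptor chain of muscle, was at 63.0, 54.4 and 49.2 CPM in adult PBS and 15.4, 40.0 and 11.7 CPM in embryonic PBS. Its log2 fold change of -1.31 (SE 0.42, adjusted p = 0.109, edgeR) became -2.04 (adjusted p = 0.0131) without embryonic PBS replicate 2.

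The shared subunits Itgb1 and Itgav were not called. Itgb1 was at 3255, 3039 and 3296 CPM in adult PBS and at 4443, 4254 and 3234 CPM in embryonic PBS, a log2 fold change of 0.32 (SE 0.15, adjusted p = 0.274, edgeR) with overlapping groups. Itgav (chr2:83722303-83806917) was at 585.8, 478.6 and 565.4 CPM in adult and 511.4, 548.9 and 352.1 CPM in embryonic PBS, a log2 fold change of -0.21 (SE 0.18, adjusted p = 0.606). Itgb6, the epithelial partner of Itgav, was near the floor, with 0, 0 and 2 counts in adult PBS and 4, 11 and 7 counts in embryonic PBS. Taken against the floor of 3 counts per library, it was at least 1.87-fold higher in embryonic PBS, and it was not called (adjusted p = 0.111, edgeR). The other chains of this group, the collagen receptors Itga1, Itga2 and Itga10, the laminin receptor chain Itga6, Itga4, Itga5, Itgb3 and Itgb5, overlapped between the stages and had log2 fold changes between -1.04 and 0.82. Itga3, Itga9, Itga11 and Itgb4, in which embryonic replicate 2 stood apart, lay between -1.52 and 0.10.

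**Figure D2:**
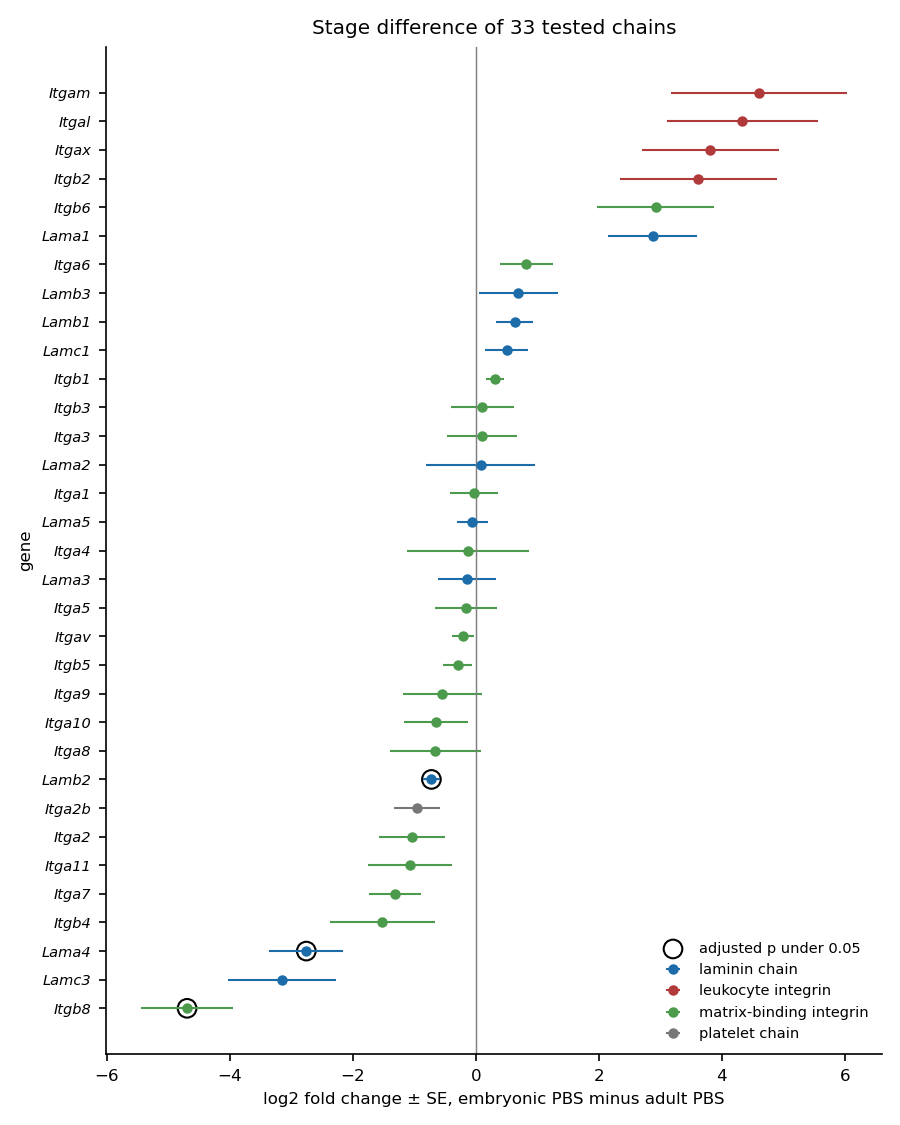
Log2 fold change of 33 of the 34 tested chains, embryonic PBS minus adult PBS, with bars of 1 SE from the edgeR fit; colours mark leukocyte, platelet, matrix-binding and laminin chains, and rings mark an adjusted p under 0.05. The 4 leukocyte chains lie highest, between 3.62 and 4.60 with SEs between 1.11 and 1.43, and the 3 ringed chains are Itgb8, Lama4 and Lamb2; the value of Itgb6 is a fitted one against adult libraries at the floor.

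Of the 11 laminin chains, 2 were lower in embryonic PBS stroma (Lama4 and Lamb2), none was higher, and 9 did not pass the test. Lama4 (chr10:38965515-39110188), the alpha chain of vessel and smooth muscle basement membrane, was at 24.2, 65.7 and 39.1 CPM in adult PBS and 8.53, 3.81 and 6.70 CPM in embryonic PBS. Every adult library was above every embryonic one. Its log2 fold change was -2.76 (SE 0.60, adjusted p = 0.0345, edgeR), and between -3.04 and -2.32 when 1 library was left out, with 6 of these 12 fits past the threshold. Adult replicate 2 was highest for Lama4 and also for the endothelial marker Pecam1, at 430.7 CPM against 0.916 and 79.1 CPM. The endothelial marker Kdr was lowest in that library, at 13.7 CPM against 15.0 and 16.8 CPM. Without that library the log2 fold change of Lama4 was -2.32 (adjusted p = 0.0989, edgeR). Without embryonic PBS replicate 2 it was -2.50 (adjusted p = 0.0706), and both fell short of the threshold. Lamc3 followed the same order of adult libraries (3.26, 17.6 and 5.45 CPM) and was at 0.874, 1.74 and 0.329 CPM in embryonic PBS. Its log2 fold change was -3.16 (SE 0.87, adjusted p = 0.0723), and -2.15 without adult PBS replicate 2. The part of endothelial RNA in both differences was not tested.

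Lamb2 and Lamb1 code for the beta chains that can take each other's place in a laminin trimer, and of these Lamb2 was lower in embryonic stroma while Lamb1 was not called. Lamb2 (chr9:108479847-108490530) was at 192.1, 159.2 and 175.9 CPM in adult PBS and 117.7, 87.3 and 114.3 CPM in embryonic PBS. Lamb2 had a log2 fold change of -0.72 (SE 0.13, adjusted p = 0.0178, edgeR), the smallest of the called changes and the one with the smallest error. Lamb1 (chr12:31265146-31329644) was at 617.9, 579.4 and 538.6 CPM in adult and at 1186, 628.6 and 867.4 CPM in embryonic PBS. It did not overlap between the stages, yet its log2 fold change of 0.63 (SE 0.30, adjusted p = 0.276) did not pass. Within a library, the ratio of Lamb2 to Lamb1 counts was 0.311, 0.275 and 0.327 in adult PBS and 0.0992, 0.139 and 0.132 in embryonic PBS. Without adult PBS replicate 1 or 3, Lamb2 lost its call (adjusted p = 0.0639 and 0.0695), and with the culture sums it stood at 0.0783.

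Lama1 (chr17:67697127-67822645), the alpha chain of early embryonic basement membrane, had the largest difference upwards among the laminins. It was at 25.2, 16.0 and 17.3 CPM in adult PBS and at 182.0, 39.4 and 208.9 CPM in embryonic PBS. The groups did not overlap, and embryonic replicate 2 lay nearest to the adults. Lama1 had a log2 fold change of 2.88 (SE 0.73, adjusted p = 0.0550, edgeR), and 3.32 (adjusted p = 0.0253) without embryonic PBS replicate 2. Lamc1, the gamma chain of most laminins, was at 550.3, 362.6 and 542.4 CPM in adult and 730.9, 488.7 and 840.4 CPM in embryonic PBS, with overlap and a log2 fold change of 0.50 (SE 0.35, adjusted p = 0.490). Lama2, Lama3, Lama5 and Lamb3 overlapped between the stages, with log2 fold changes between -0.15 and 0.69.

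In all, 8 tested chains lay wholly higher and 6 wholly lower in embryonic than in adult PBS libraries, while 12.4% and 11.9% of all tested genes did so. With the 2 PBS groups alone, or with the libraries of a culture summed, none of the 34 was called. The LPS libraries, taken to come from the same cultures, are no independent test. In them 6 chains were called in edgeR (Itgal, Itgb6 and Lama1 higher, Lama4, Itga7 and Lamc3 lower), where 5.31% of all genes were.

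**Figure D3:**
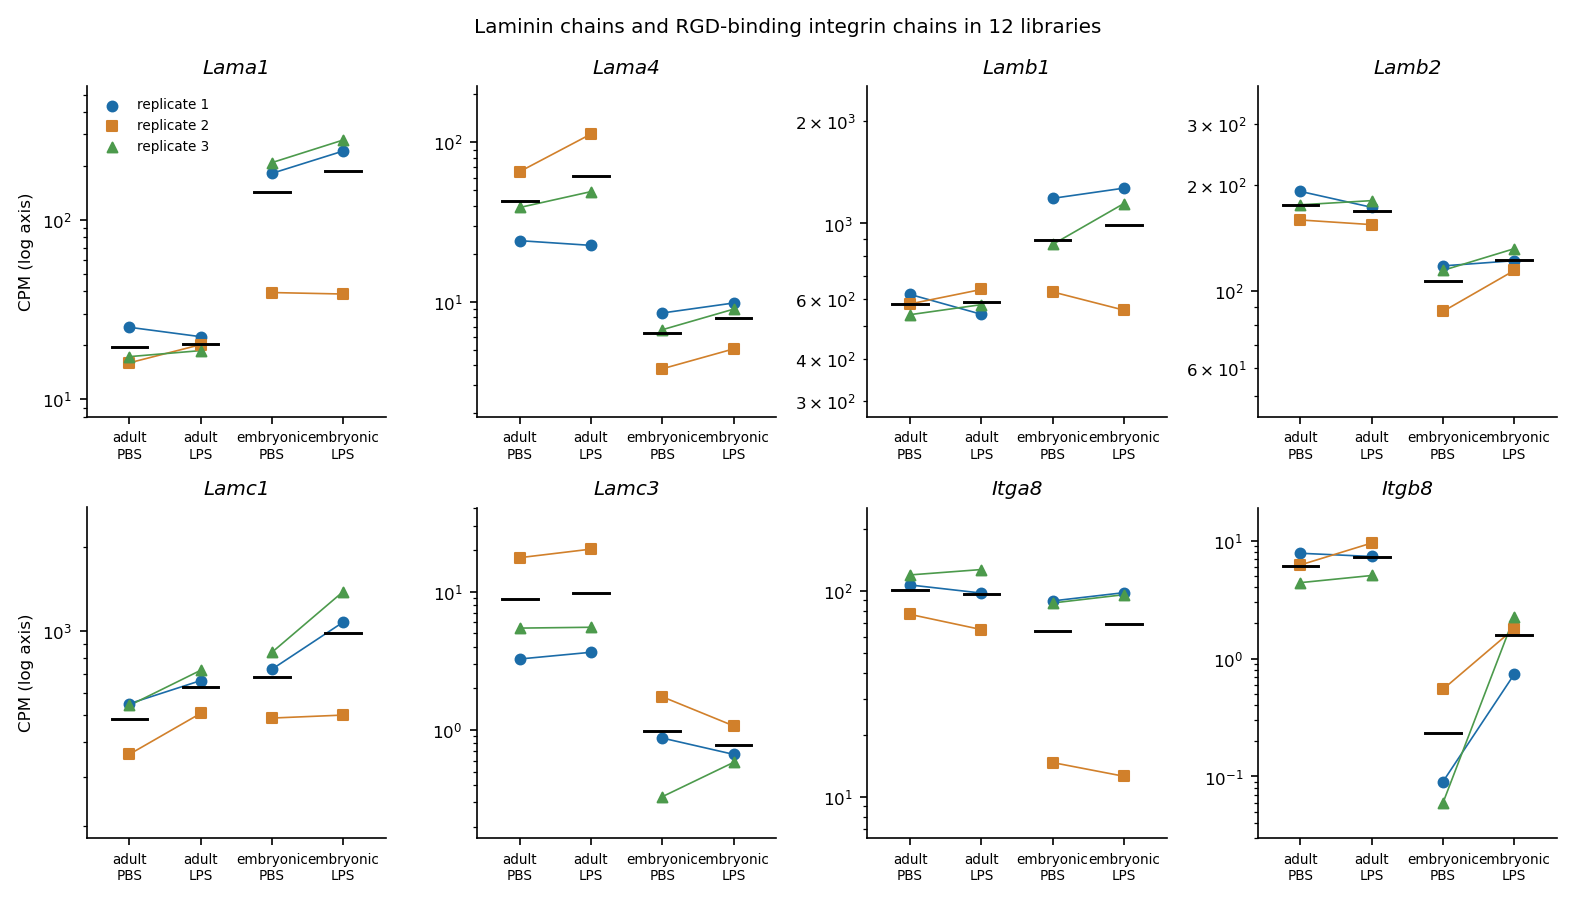
Level of 6 laminin chains and of Itga8 and Itgb8 in CPM, on a log axis with its own range in each panel, in the 4 groups. Points are single libraries, thin lines join PBS and LPS libraries of equal replicate number within a stage, and black bars are group means. Itgb8, Lama4 and Lamb2 are lower in all embryonic PBS than in all adult PBS libraries, and embryonic replicate 2 lies lowest of the embryonic cultures for Lama1, Lamb1, Lamc1 and Itga8.

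The proteins that work with these chains were read from a list of 41 genes for the adhesion plaque, the laminin network and integrin ligands, of which 38 were tested. In PBS stroma 1 was higher in the embryo and 1 lower, where 1.51% of all genes were higher and 2.57% lower. Parvg, the parvin of blood cells, which ties integrins to actin, was at 0.550, 0.241 and 0.0341 CPM in adult PBS and 3.86, 2.56 and 25.5 CPM in embryonic PBS (log2 fold change 5.26, SE 1.25, adjusted p = 0.0466, edgeR). Its highest libraries were those highest for Itgam within their stages. Vcam1, the ligand of the receptor formed by Itga4 and Itgb1, was lower, at 93.5, 187.8 and 119.7 CPM in adult and 12.1, 56.0 and 21.4 CPM in embryonic PBS (log2 fold change -2.16, SE 0.53, adjusted p = 0.0495).

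The LPS comparisons asked which chains respond within 6 h. Within a stage, an LPS and a PBS library of equal number deviated together from their group means, so each comparison is given without and with the replicate number as a block. In embryonic stroma no chain was called without the block (edgeR quasi-likelihood test, against 2.75% of all genes), 6 of 34 had an unadjusted p under 0.05 (10.8% of all genes), and 2 were called by DESeq2 (5.26% of all genes) and 2 by edgeR's likelihood ratio test (4.69%). With the block, 7 chains rose and none fell, where 9.43% of all genes rose and 3.12% fell. The 7 included Itgal, Itga2, Itga4, Itgb6, Itgb8 and Lamb3. With the block, the 34 chains had a median log2 fold change of 0.20, beside 0.00 over all genes. Of the 34, 6 lay wholly higher with LPS and none wholly lower, where 7.58% and 4.02% of all genes did.

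Itgal was the leukocyte chain that rose. In embryonic PBS it was at 8.32, 11.8 and 53.8 CPM and in embryonic LPS at 22.4, 52.9 and 197.5 CPM. Each culture was higher with LPS, by 1.42, 2.16 and 1.87 on the log2 CPM scale, although the groups overlap. The log2 fold change was 1.83 (SE 0.15, adjusted p = 0.000159, edgeR with the block) and 1.88 (SE 1.06, adjusted p = 0.651) without it. Its partner and the other myeloid alpha chains did not pass the test. Itgb2, the only beta chain that pairs with Itgal, was at 5.61, 12.8 and 62.8 CPM with PBS and 3.93, 28.3 and 41.1 CPM with LPS (log2 fold change 0.02, SE 0.31, adjusted p = 0.979, with the block). Itgam was at 6.27, 35.7 and 56.1 CPM with LPS, higher than with PBS in replicate 2 and lower in replicates 1 and 3 (log2 fold change 0.16, SE 0.29, adjusted p = 0.786). Itgax was at 1.82, 1.49 and 6.84 CPM with LPS (log2 fold change -0.06, SE 0.32, adjusted p = 0.941).

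Set within the same library, the ratio of Itgal to Itgb2 counts was 1.48, 0.922 and 0.858 with PBS and 5.71, 1.87 and 4.81 with LPS in the embryonic cultures, higher in 3 of 3. The ratio of Itgam to Itgb2 was 1.20, 1.31 and 1.26 with PBS and 1.60, 1.27 and 1.37 with LPS. Per 100 counts of the 9 summed macrophage and leukocyte markers, Itgal held 5.20, 4.47 and 3.25 counts with PBS and 18.4, 8.61 and 15.6 with LPS. The marker sum itself went from 160.1, 264.7 and 1658 CPM to 121.9, 614.8 and 1265 CPM, higher in replicate 2 only. Of these markers 2 rose with the block, Ptprc and Fcer1g, and the ratio of Itgal to Ptprc, which codes for CD45, was 1.10, 1.21 and 0.910 with PBS and 1.15, 0.821 and 1.22 with LPS. The ratio of Itgal to Itgb2 was higher with LPS in each culture, and its ratio to Ptprc overlapped between the treatments.

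Of the 18 matrix-binding chains, 4 rose in embryonic stroma with the block, and 14 did not pass. Itga2 (chr13:114833081-114932100), the alpha chain of a collagen and laminin receptor, was at 13.8, 25.4 and 17.1 CPM with PBS and 40.5, 46.1 and 72.9 CPM with LPS, groups that do not overlap. Its log2 fold change was 1.50 (SE 0.20, adjusted p = 0.00254, edgeR with the block; 0.267 without). Itga4 (chr2:79255426-79333114), the alpha chain of the Vcam1 and fibronectin receptor of leukocytes and mesenchyme, was at 9.34, 4.51 and 14.3 CPM with PBS and 17.9, 58.6 and 127.8 CPM with LPS. Its cultures differed widely in size of response, by 0.93, 3.68 and 3.15 on the log2 CPM scale. Itga4 had a log2 fold change of 2.63 (SE 0.57, adjusted p = 0.0211 with the block; 0.281 without), and DESeq2 called it without the block (adjusted p = 0.0415). The ratio of Itga4 to Ptprc counts was 1.24, 0.463 and 0.242 with PBS and 0.916, 0.910 and 0.791 with LPS, lower in replicate 1 and higher in the other two.

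Itgb8, the chain lowest in embryonic against adult PBS stroma, rose with LPS. It was at 0.0904, 0.549 and 0.0598 CPM with PBS and at 0.736, 1.80 and 2.25 CPM with LPS, from 3, 18 and 2 counts to 21, 52 and 58. Itgb8 had a log2 fold change of 2.82 (SE 0.52, adjusted p = 0.0106, edgeR with the block) and 2.75 (SE 0.72, adjusted p = 0.0847) without it, and DESeq2 called it without the block (adjusted p = 0.00191). With LPS every embryonic library still lay below every adult library, whether PBS or LPS, the lowest of which was at 4.40 CPM. Itgb6, the other Itgav partner of low level, went from 4, 11 and 7 counts to 25, 19 and 38 counts (log2 fold change 2.13, SE 0.48, adjusted p = 0.0260 with the block; 0.151 without). Itgav itself was at 633.9, 615.3 and 638.8 CPM with LPS, above all embryonic PBS libraries, with a log2 fold change of 0.44 (SE 0.13, adjusted p = 0.0601 with the block). The other partners of Itgav did not pass: Itgb1, Itgb3 and Itgb5 had log2 fold changes of 0.03, 0.22 and 0.02 with the block. Nor did Itga8, at 98.1, 12.6 and 95.9 CPM with LPS (log2 fold change 0.03, SE 0.10, adjusted p = 0.899).

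Of the 11 laminin chains, 2 rose in embryonic stroma with the block. Among them Lamb3 codes for the beta chain that joins Lama3 in the laminin of epithelial anchoring sites. Lamb3 (chr1:193294353-193343878) was at 1.60, 0.945 and 3.47 CPM with PBS and 4.98, 2.69 and 6.45 CPM with LPS (log2 fold change 1.32, SE 0.30, adjusted p = 0.0245 with the block; 0.589 without). Its partner Lama3 stayed low, between 0.452 and 1.28 CPM with PBS and between 0.771 and 1.48 CPM with LPS, and was not called (adjusted p = 0.347 with the block). Lamc1 was at 1078, 500.9 and 1387 CPM with LPS, with a log2 fold change of 0.44 (SE 0.13, adjusted p = 0.0578 with the block). Lamb1 was at 1271, 555.5 and 1145 CPM with LPS (log2 fold change 0.11, SE 0.12, adjusted p = 0.625). The Lamb3 promoter is shown because it was the only one of the 23 chain genes with a RefSeq window that held the NF-kB consensus, given in capitals at bases 274 to 283.
Lamb3 promoter, chr1:193301744-193302043, plus strand: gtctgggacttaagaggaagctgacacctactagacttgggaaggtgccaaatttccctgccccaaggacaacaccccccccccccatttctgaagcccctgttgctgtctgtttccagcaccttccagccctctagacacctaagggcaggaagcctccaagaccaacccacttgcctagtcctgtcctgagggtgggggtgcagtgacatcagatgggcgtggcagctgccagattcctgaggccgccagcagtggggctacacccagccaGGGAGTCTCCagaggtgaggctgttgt
The consensus, searched on both strands, was present in 4.51% of the 32851 windows. In Lamb3 it lies after the start site of the window, which RefSeq places downstream of the gene's first base, and a second, overlapping Lamb3 window holds the same match. No window for Itgal or Itgb2 was used here.

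In adult stroma no chain was called without the block (edgeR quasi-likelihood test, against 0.606% of all genes), 3 of 34 had an unadjusted p under 0.05 (5.58% of all genes), and none was called by DESeq2 (2.26% of all genes) or the likelihood ratio test (1.91%). With the block, 5 chains rose and none fell, where 4.69% of all genes rose and 1.51% fell. These included Itgal, Itga2, Itgav and Lamb3, and 4 of the 5 were also called in embryonic stroma. Over all 34 chains, the median log2 fold change with the block was 0.04, beside -0.01 over all genes, and 0.03 with Itgb6 set at its bound. Of the 34, 3 lay wholly higher with LPS and none wholly lower, where 9.1% and 5.39% of all genes did.

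Itgal was at 2.67, 0.385 and 0.545 CPM in adult PBS and at 5.34, 0.584 and 1.73 CPM in adult LPS, higher in each culture, with a log2 fold change of 1.12 (SE 0.24, adjusted p = 0.0357, edgeR with the block). Itgb2 was at 4.88, 0.584 and 0.864 CPM with LPS (log2 fold change -0.09, SE 0.44, adjusted p = 0.956). Counts were low in replicates 2 and 3. Itgal had 8 and 16 counts there with PBS and 19 and 40 with LPS, and Itgb2 had 14 and 30 with PBS and 19 and 20 with LPS. The ratio of Itgal to Itgb2 counts was 0.549, 0.571 and 0.533 with PBS and 1.09, 1.00 and 2.00 with LPS, again higher in 3 of 3. Against Ptprc, the ratio of Itgal was 1.20, 1.14 and 1.00 with PBS and 0.828, 1.06 and 0.727 with LPS, lower in 3 of 3. Itgam was at 3.35, 0.154 and 0.778 CPM with LPS and Itgax at 0.358, 0.0923 and 0.173 CPM, and neither was called (adjusted p = 0.965 and 0.789 with the block). Their cultures moved in both directions, in replicates 2 and 3 at counts of at most 18 for either gene.

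Itga2 was at 50.5, 15.0 and 49.7 CPM in adult PBS and 94.1, 31.9 and 117.2 CPM in adult LPS (log2 fold change 1.07, SE 0.20, adjusted p = 0.0197 with the block). Itgav was at 585.8, 478.6 and 565.4 CPM with PBS and 858.9, 673.8 and 930.4 CPM with LPS, groups that do not overlap (log2 fold change 0.59, SE 0.13, adjusted p = 0.0345). Both are chains of matrix receptors, and their rises were alike in the 3 cultures, between 0.90 and 1.24 for Itga2 and between 0.49 and 0.72 for Itgav on the log2 CPM scale. Lamb3 was at 2.09, 0.337 and 1.26 CPM with PBS and 4.30, 2.399 and 5.01 CPM with LPS, without overlap (log2 fold change 1.77, SE 0.32, adjusted p = 0.0182). Itgb8 was at 7.33, 9.53 and 5.06 CPM with LPS, against 7.80, 6.22 and 4.40 CPM with PBS (log2 fold change 0.24, SE 0.33, adjusted p = 0.799). Itga4 was higher with LPS in replicate 1 and lower in replicates 2 and 3 (log2 fold change 0.04, SE 0.58, adjusted p = 0.987). Itga8 (97.7, 65.0 and 127.0 CPM with LPS), Lamb1 (540.0, 639.1 and 576.6 CPM), Itgb1 (2954, 2869 and 3212 CPM) and Lamc1 (665.6, 508.1 and 724.6 CPM) were not called.

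**Figure D4:**
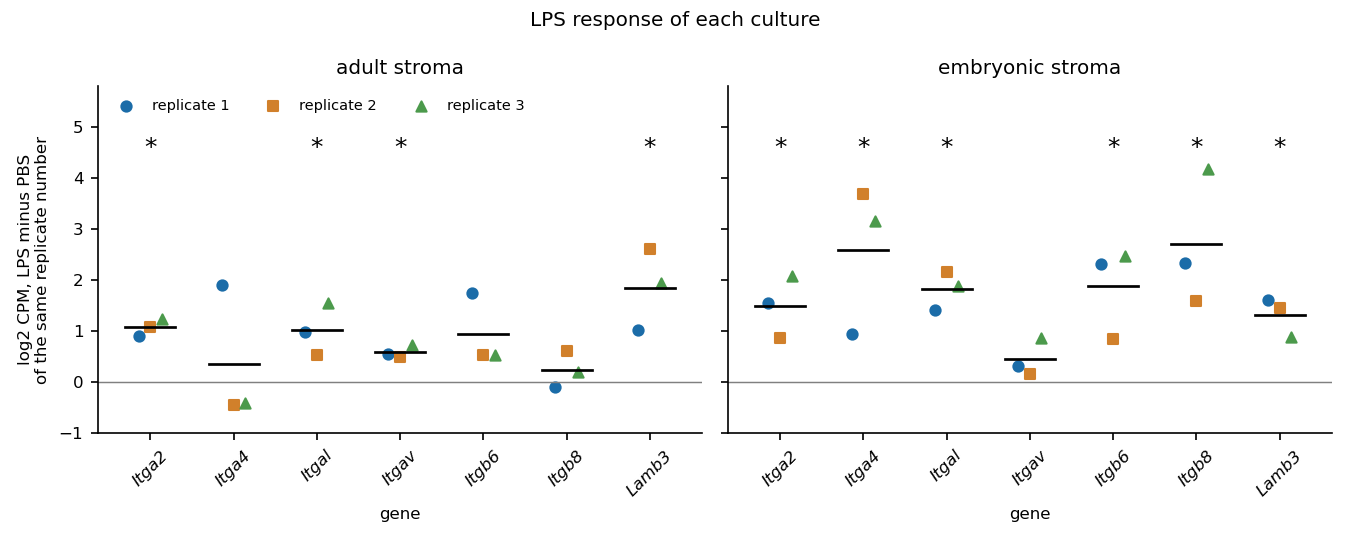
Difference in log2 CPM (prior count 2), LPS minus PBS, within each pair of libraries of equal replicate number, for 7 chains called with the replicate block in adult or embryonic stroma (adult on the left, embryonic on the right). Points are cultures, black bars are the mean of 3, and asterisks mark an adjusted p under 0.05 in edgeR with the block. Every embryonic culture lies above 0 for all 7 chains, whereas Itga4 and Itgb8 in adult stroma lie on both sides of 0.

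These calls were recomputed without single cultures. With both libraries of 1 embryonic culture removed in turn, between 4 and 11 chains were called with the block, where between 7.98% and 15.0% of all genes were, and Itgal, Itga2 and Itgb8 were called each time. Lamb3, Itga4 and Itgb6 were each called in 1 of the 3 fits. So were Itgb2, Itgav and Lamc1, which were not called with all cultures kept. With 1 adult culture removed, between 0 and 1 chain was called, where between 1.77% and 3.45% of all genes were: Lamb3 without adult replicate 1, and none without adult replicate 2 or 3.

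No chain differed between the stages in its response to LPS by the test of the interaction. Without the block 0 of 34 were called, as 0% of all genes were, and 1 had an unadjusted p under 0.05, against 2.25% of all genes. With the block 0 were called, against 0.844% of all genes, and 8 had an unadjusted p under 0.05, against 8.92%. DESeq2 and the likelihood ratio test also called none, against 0.192% of all genes in each. The interaction of Itgb8, its embryonic minus its adult response, was 2.58 on the log2 scale (SE 0.62, adjusted p = 0.179, edgeR with the block). It passed in 1 fit, the one without embryonic replicate 2 (3.95, adjusted p = 0.0304). That of Itga4 was 2.58 (SE 0.81, adjusted p = 0.364) and that of Itgal 0.72 (SE 0.29, adjusted p = 0.517). Calls made in embryonic stroma alone (Itga4, Itgb6 and Itgb8) or in adult stroma alone (Itgav) are therefore not shown to differ between the stages.

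Without the block, 2.75% of all genes were called with LPS in embryonic and 0.606% in adult stroma. Among the 41 partner genes, those that rose with LPS without the block were ligands, 3 in embryonic and 1 in adult stroma. Vcam1 rose in both, from between 12.1 and 56.0 CPM to between 441.5 and 947.2 CPM in embryonic stroma (log2 fold change 4.40, SE 0.58, adjusted p = 0.00391, edgeR without the block) and to between 1615 and 1916 CPM in adult stroma (log2 fold change 3.69, adjusted p = 0.0178). Icam1, the ligand of LFA-1, rose in embryonic stroma, from between 18.99 and 54.9 CPM to between 432.9 and 1306 CPM (log2 fold change 4.41, SE 0.63, adjusted p = 0.00603). In adult stroma it went from between 61.0 and 168.5 CPM to between 681.0 and 1053 CPM, and rose with the block (log2 fold change 3.16, SE 0.41, adjusted p = 0.00363; 0.0584 without). Madcam1, a ligand of integrins that hold Itga4, rose from at most 1 count per library to between 0.207 and 1.32 CPM in embryonic stroma (adjusted p = 0.0276). In adult stroma it went from 0 counts in each PBS library to 20, 19 and 26 counts, and was called with the block (adjusted p = 0.0145; 0.0584 without). The interaction was called for none of these 3 ligands. With the block, 8 of the 38 tested rose and 1 fell in embryonic stroma, where 9.43% of all genes rose and 3.12% fell. In adult stroma 7 rose and 1 fell, where 4.69% of all genes rose and 1.51% fell. The gene that fell in both was Lims2, a PINCH adaptor of the adhesion plaque, with log2 fold changes of -0.70 (SE 0.08, adjusted p = 0.000939) and -0.61 (SE 0.08, adjusted p = 0.00346) with the block.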

How the data were processed

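The authors mapped single-end reads of stranded poly(A) libraries to GRCm38.p6 (mm10) with STAR, allowing 1 mismatch and unique positions only, and deposited raw counts per gene symbol, without normalization. The column for the library's strand was used. The other strand held between 1.14% and 1.98% of the summed counts of both strands. Groups came from the labels. All 12 libraries were fitted in R 4.3.3 with edgeR 4.0.16 (TMM, quasi-likelihood test, 4 groups), over the 13038 genes whose CPM exceeded 0.5 throughout at least 1 group; chains were called at a Benjamini-Hochberg adjusted p under 0.05 over all these genes. The SE is the absolute log2 fold change divided by the square root of F. CPM used TMM-scaled totals, and log2 CPM a prior count of 2. DESeq2 1.42.0 was an alternative.

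LPS and PBS libraries of one number within a stage correlated in their deviations from group means (between 0.610 and 0.850; other numbers at most 0.0218), so numbers were taken as pairs within a stage; across stages the same number gave at most -0.0022. No source used here says that pairs share a culture. Libraries of a group differed beyond counting noise. Without the block, P-values rest on a spread between libraries pooled over the 4 groups, with paired libraries counted as separate. With the block, they rest on the spread left once each pair's own level is removed. Each group held only 3 libraries. Positions and promoters are RefSeq's (GRCm38.p6), and exon lengths are those of protein-coding GENCODE transcripts. Both were matched by symbol for all 37 genes (promoters for 23). Scripts were tested on simulated counts, with changes put into 200 genes. With simulated cultures that differ as these do, 9.17% of embryonic and 6.19% of adult LPS calls with the block were false. Without the block, 74% and 69.5% of the changes were found, and 55.5% for the interaction. The values of 1 chain are counted in totals and otherwise not reported here. Members, roles and lists were chosen with earlier results of these data known. Values in every library are given for Itgam, Itgax, Itga8, Lamb1, called chains and the shared chains Itgb1, Itgb2, Itgav and Lamc1; values of other chains were added where a library stood apart or a partner was described.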

Additional observations from a re-analysis of the deposited data

How the results depend on the processing

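The stage comparison called 3 chains, and 4 without TMM factors. DESeq2 called 10 (11.9% of all genes), the LPS libraries 6 (5.31%), the likelihood ratio test 11 and the block across stages 7. The 2 groups alone, the culture sums and an adjusted p under 0.01 called 0, and leaving out 1 library gave between 1 and 5. Where no share of all genes is given for a fit, here or above, its count is not a result about the chains. In embryonic stroma LPS called 0 chains without the block, 7 with the replicate block within a stage, 2 with DESeq2 and 2 with the likelihood ratio test; leaving out 1 library gave between 0 and 1, and leaving out 1 culture with the block between 4 and 11. In adult stroma it called 0 without and 5 with the replicate block, 0 in each fit without 1 library, and between 0 and 1 with the block and a culture left out. The interaction was called for 0 chains, and for between 0 and 1 with the block and a culture left out.

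The log2 fold change of Itgam with LPS in embryonic stroma was -0.07, and 0.16 with the replicate block within and 0.24 with that across stages; leaving out 1 library gave between -0.77 and 1.47, and a culture with the block -0.33, 0.27 or 0.51. That of Itgb2 was -0.15, 0.02 and 0.15, between -0.81 and 1.41 without 1 library, and between -0.57 and 0.38 without 1 culture. Itgb2 passed the threshold in 1 of the 3 fits with the block and a culture left out. Without 1 library, Itgal with LPS in adult stroma was between -0.11 and 2.43, and its interaction between -0.54 and 2.11. The causes were not tested. The other settings left out no single library or culture, and included the 2 groups alone and the LPS libraries. Over these settings, 311 values kept direction and side of the threshold, 38 passed it newly, 9 lost it and 4 reversed. Depth limits Itgad, Itgae and Itgb7, and in some groups Itgb6, Itgb8 (3 and 2 counts in embryonic PBS replicates 1 and 3) and Itgax (4 and 2 counts in adult PBS replicates 2 and 3). Adult PBS replicates 2 and 3 were also low in Itgal (8 and 16 counts), Itgam (6 and 12) and Itgb2 (14 and 30).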
